A study of Mus musculus with 6 samples.

Results

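Solute carriers (SLC proteins) are the largest group of membrane transporters in mammals, and 126 of their genes were described here in E14 mouse embryonic stem cells that lack Pml, set against wild-type cells. The 126 were taken from 24421 genes in the deposited RNA-seq table. In it, 344 names had the form Slc, a number, the letter a and a second number. Of these, 136 had a mean of at least 10 CPM (reads per 1000000 reads counted in genes) over the 4 libraries, and 10 of the 136 were left out by name. Of the other matching names, 208 lay under 10 CPM, and 29 of these had no read. The members were thus selected on their mean CPM over all 4 libraries, which is given only as a description. The difference between genotypes was not part of the rule. The members just inside the limit were Slc4a3 at 10.0 CPM, Slc37a2 at 10.1 CPM and Slc17a5 at 10.5 CPM, and the genes just outside it were Slc5a3 at 9.40 CPM, Slc22a23 at 9.36 CPM and Slc25a30 at 8.90 CPM. All 126 members also passed the lower filter used for testing, a mean of at least 1 CPM.

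The groups were Pml-/- cells (n = 2 libraries) and wild-type cells (n = 2 libraries), both of the E14 line, a widely used line of mouse embryonic stem cells, and both exposed to 10 µM paraquat, a herbicide that generates superoxide by redox cycling, for 15 h. Pml encodes the scaffold of PML nuclear bodies. No untreated library was analysed, so the comparison shows how the genotypes differ under paraquat and not what paraquat does. Both groups were grown in the same serum-containing medium with high glucose, a glutamine source, non-essential amino acids, pyruvate, 2-mercaptoethanol, leukemia inhibitory factor, CHIR99021 and PD0325901. The labels do not say whether the knockout is 1 clone. Nor do they say that libraries of 1 genotype were grown as separate cultures, so the p-values cover only variation among these libraries, which may be technical. The kit entry of wild-type library 2 names a DNA kit alone, while an RNA kit stands in the other 3 entries. No source used here says whether its preparation differed. The series also holds 2 samples of DNA from proximity labelling around PML, which are not analysed here.

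SLC proteins move solutes across membranes by facilitated diffusion, by exchange, or by coupling to sodium or proton gradients that ATP-driven pumps maintain. Families are numbered by sequence and mostly share a substrate type. Most members of Slc25, but not all, sit in the inner mitochondrial membrane. Slc39 proteins bring zinc and related metals into the cytosol, and Slc30 proteins take zinc out of it. Slc1, Slc6, Slc7, Slc36 and Slc38 carry amino acids. In embryonic stem cells SLC proteins supply glutamine, glucose, one-carbon precursors and vitamins for rapid division. Ascorbate taken up by such a carrier is a cofactor of the TET and other iron-dependent dioxygenases.

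Library depth was 38150397 and 43715807 reads in the knockout and 31384794 and 44130093 reads in wild type. Pml itself was at 78.7 and 89.7 CPM in the knockout libraries and 238 and 228 CPM in the wild-type libraries, or 36.2% of the wild-type level (log2 fold change -1.46, limma adjusted p = 4.43e-10). No source used here names the disrupted part of the gene. Summed markers of embryonic stem cells (7 genes, Pou5f1 and Nanog among them) reached 5952 to 6037 CPM in the knockout and 5806 to 5914 CPM in wild type. Among them Tfcp2l1 rose (993 ± 16.7 CPM in the knockout and 815 ± 125 CPM in wild type, SD, n = 2 each; limma adjusted p = 0.0241) and Zfp42 fell (674 ± 29.9 CPM in the knockout and 812 ± 21.6 CPM in wild type; limma adjusted p = 0.00251). The 7 feeder fibroblast markers summed to 5.82 to 6.52 CPM in the knockout and 6.84 to 7.58 CPM in wild type, with Dcn at 0 in all libraries. The 6 primitive endoderm markers summed to 8.47 to 11.1 CPM in the knockout and 8.18 to 9.62 CPM in wild type. The 6 trophoblast markers summed to 83.2 to 84.6 CPM in the knockout and 62.2 to 68.1 CPM in wild type. Tfap2c, also a gene of stem cells, made 70.7 and 71.9 CPM in the knockout and 49.8 and 55.2 CPM in wild type. It rose (log2 fold change 0.44, limma adjusted p = 0.000845), as 1 of the 3 tested genes of its list. The 5 mesoderm and neural markers summed to 47.9 to 48.7 CPM in the knockout and 63.3 to 67.5 CPM in wild type. Sox1 and Nes, of the last list, fell (2 of its 3 tested genes). The part of these shifts in the members' values was not tested.

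Most well-expressed solute carrier genes differed little between genotypes, and a few fell clearly in the knockout. Of 126 members, 3 rose and 8 fell in the knockout, and the other 115 did not pass the threshold (limma-trend on log2(CPM + 1), adjusted p under 0.05). That is 8.73% of members, beside 5.41% of all 12710 tested genes and 5.87% of the 9250 tested genes whose mean reached 10 CPM. By direction, the background was 1.95% for genes called higher and 3.45% for genes called lower. Whether these shares differ was not tested, here or for the classes and lists below, whose counts have the same background. The median log2 fold change (knockout minus wild type, here and throughout) was 0.0019 over the members and -0.0029 over all tested genes, and the median of its absolute value was 0.08 for the members, 0.09 for all tested genes and 0.07 for those with at least 10 CPM. Libraries of the groups did not overlap for 64 members, or 50.8%, against 49.3% of all tested genes. The summed level of the members was 9218 and 9202 CPM in the knockout and 9324 and 9117 CPM in wild type, so the groups overlapped in the share of reads given to them. Of the members, only Slc23a2 and Slc5a1 differed by at least 1.5-fold on the log2(CPM + 1) scale. For 119 of the 126 the 95% interval of the difference lay wholly within 1.5-fold in either direction. In bulk RNA a lower level in every cell and a smaller share of cells with the transcript cannot be told apart.

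**Figure D1:**
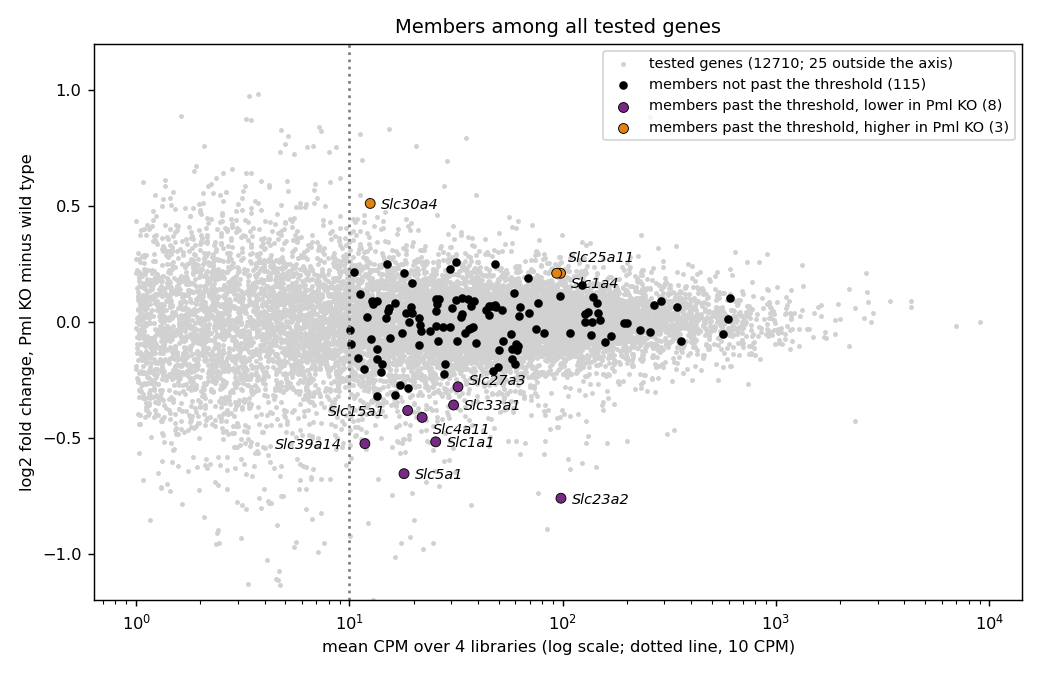
Log2 fold change (knockout minus wild type, on log2(CPM + 1)) against the mean CPM over 4 libraries on a log scale, for all tested genes (grey), the 115 members not past the threshold (black) and the 11 past it (purple lower, orange higher in the knockout). The members lie along the band of all genes, with Slc23a2 at -0.76 and Slc5a1 at -0.65 below it.

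The largest change was in Slc23a2, the sodium-dependent vitamin C transporter SVCT2, which brings ascorbate into cells. It was at 74.2 and 71.0 CPM in the knockout libraries and at 122 and 125 CPM in the wild-type libraries. Both knockout libraries lay far under both wild-type libraries, and the knockout mean was 58.7% of wild type. Slc23a2 fell by 0.76 on the log2 scale (SE 0.053, limma adjusted p = 3.06e-07), with an interval of -0.87 to -0.65, and it passed under all 11 alternative settings tried (adjusted p 1.08e-26 to 8.94e-05). The gene spans chr2:132052496-132145320 (mm10), and the 2 tested genes within 0.1 Mb, Rassf2 and Tmem230, did not pass (adjusted p = 0.233 and 0.851). Slc23a2 overlaps the non-coding RNA gene Gm14051 and the pseudogene Gm14052, which have no values here. No source used here says whether counting used strand, so reads of these 2 cannot be told apart from its own.

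Slc5a1, the sodium-glucose cotransporter SGLT1, was at 14.3 and 13.3 CPM in the knockout and at 21.8 and 22.8 CPM in wild type. The groups did not overlap, and the knockout mean was 61.9% of wild type (log2 fold change -0.65 ± 0.092 SE, limma adjusted p = 0.000604). Its call held under all 11 alternatives (adjusted p 5.61e-06 to 0.0119). Slc1a1, the high-affinity carrier of glutamate, aspartate and cysteine known as EAAC1, was at 20.0 and 21.4 CPM in the knockout and at 31.2 and 29.0 CPM in wild type. It too showed no overlap, at 68.9% of the wild-type mean (log2 fold change -0.52 ± 0.083 SE, limma adjusted p = 0.00189; 4.03e-05 to 0.0175 over 11 alternatives). Slc33a1, which carries acetyl-CoA into the endoplasmic reticulum, was at 26.2 and 27.5 CPM in the knockout and at 34.8 and 34.6 CPM in wild type (log2 fold change -0.36 ± 0.074 SE, limma adjusted p = 0.00986; 0.0013 to 0.0466 over 11 alternatives). These 4 genes were the members whose call held under every alternative. They lie on chromosomes 2, 5, 19 and 3, and the lowest adjusted p among the 11 tested genes within 0.1 Mb of them was 0.0974, for Ctbp1 near Slc5a1. Slc1a1 overlaps the non-coding RNA gene Gm52404 and the pseudogene Gm5822, also without values here. The calls of the other 7 members all ended when genes with low values were kept in the test (adjusted p 0.0598 to 0.139), and the libraries on which each rests are named with its values.

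**Figure D2:**
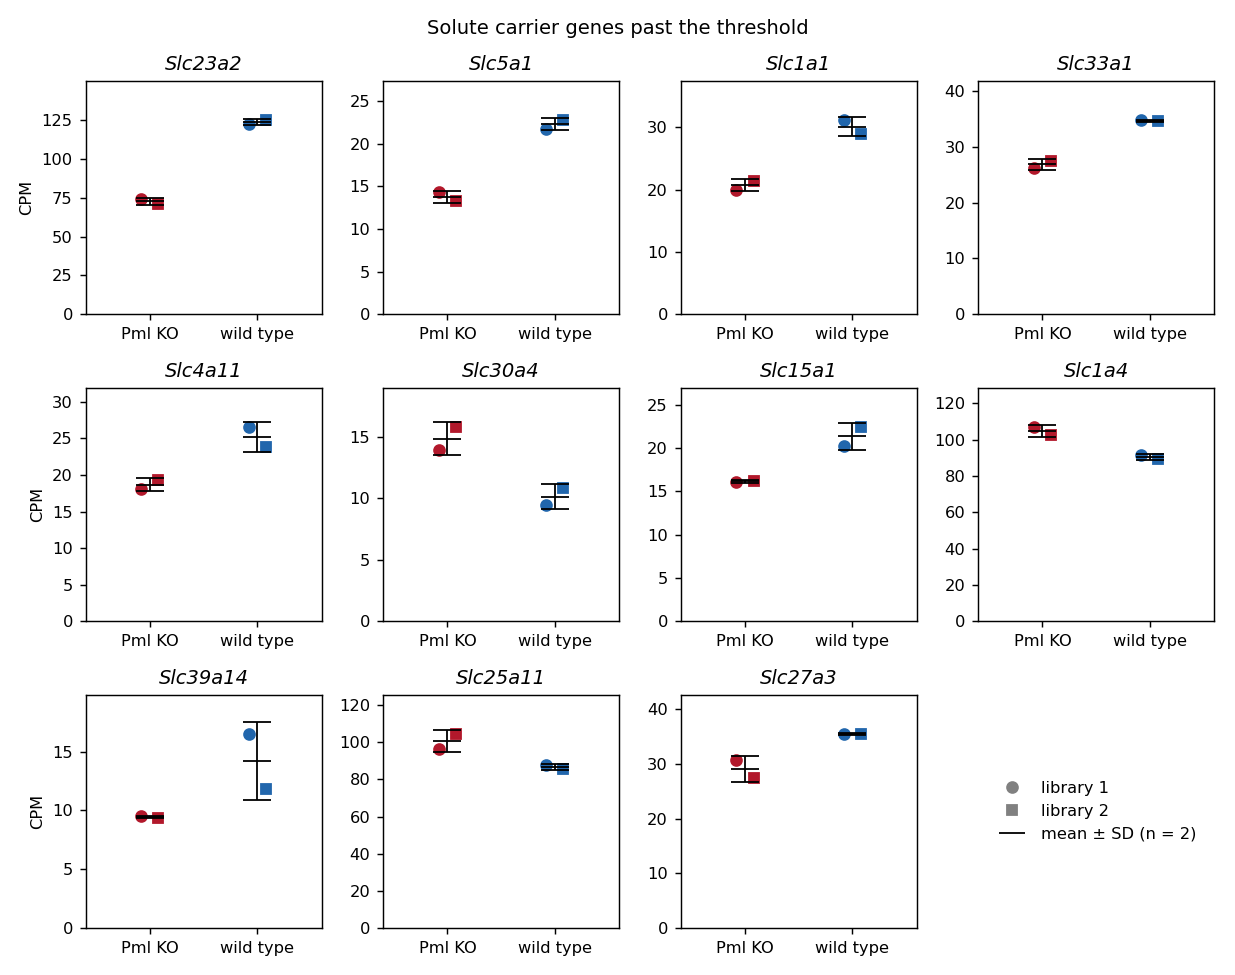
CPM of the 11 members past the threshold in each library, knockout on the left and wild type on the right of each panel, with axes from 0; circles and squares are libraries 1 and 2, and bars show the mean and SD (n = 2). No panel shows overlapping groups, and the wild-type libraries of Slc39a14 stand apart from each other at 16.5 and 11.9 CPM.

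Start-site sequences are given for these 4 genes, for Slc30a4, the zinc exporter that rose, and for Slc1a4, an amino acid carrier that rose and is a known ATF4 target, so that the windows can be read beside the changes. Each is the 300-base window that RefSeq places around an annotated start, from upstream into the transcript, 5′ to 3′ on the gene's strand (GRCm38.p6); of 2 windows of Slc23a2 the more downstream is shown, and the other held 1 metal response element core and no GC box. Capitals mark, on either strand, the GC box GGGCGG, the E-box CACGTG, the metal response element core (TGCGCNC or TGCACNC) and the core TGATGNAA to which C/EBP and ATF proteins bind together.
Slc23a2, chr2:132145059-132145358, minus strand: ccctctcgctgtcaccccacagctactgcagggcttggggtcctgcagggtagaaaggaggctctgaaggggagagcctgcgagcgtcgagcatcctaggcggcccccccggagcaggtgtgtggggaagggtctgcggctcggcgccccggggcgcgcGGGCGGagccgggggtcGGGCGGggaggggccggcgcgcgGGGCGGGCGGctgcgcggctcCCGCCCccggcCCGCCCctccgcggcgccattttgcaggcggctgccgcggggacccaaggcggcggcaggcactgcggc
Slc5a1, chr5:33103969-33104268, plus strand: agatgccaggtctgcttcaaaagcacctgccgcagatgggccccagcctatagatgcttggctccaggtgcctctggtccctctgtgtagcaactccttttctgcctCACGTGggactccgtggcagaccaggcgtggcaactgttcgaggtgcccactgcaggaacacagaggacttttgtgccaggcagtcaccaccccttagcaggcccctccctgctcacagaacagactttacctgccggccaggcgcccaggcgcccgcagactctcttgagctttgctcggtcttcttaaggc
Slc1a1, chr19:28834885-28835184, plus strand: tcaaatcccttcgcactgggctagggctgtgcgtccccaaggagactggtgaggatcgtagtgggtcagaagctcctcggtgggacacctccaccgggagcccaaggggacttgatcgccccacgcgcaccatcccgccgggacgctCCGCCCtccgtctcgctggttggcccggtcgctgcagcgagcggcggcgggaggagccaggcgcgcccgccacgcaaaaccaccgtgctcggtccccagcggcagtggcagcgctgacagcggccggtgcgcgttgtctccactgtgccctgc
Slc33a1, chr3:63964684-63964983, minus strand: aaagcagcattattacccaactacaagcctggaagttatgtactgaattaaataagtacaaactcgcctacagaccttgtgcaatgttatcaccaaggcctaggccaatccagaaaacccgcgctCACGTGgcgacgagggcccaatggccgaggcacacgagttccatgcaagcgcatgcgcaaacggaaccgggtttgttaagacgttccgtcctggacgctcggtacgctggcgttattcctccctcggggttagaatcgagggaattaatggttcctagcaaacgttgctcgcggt
Slc30a4, chr2:122702614-122702913, minus strand: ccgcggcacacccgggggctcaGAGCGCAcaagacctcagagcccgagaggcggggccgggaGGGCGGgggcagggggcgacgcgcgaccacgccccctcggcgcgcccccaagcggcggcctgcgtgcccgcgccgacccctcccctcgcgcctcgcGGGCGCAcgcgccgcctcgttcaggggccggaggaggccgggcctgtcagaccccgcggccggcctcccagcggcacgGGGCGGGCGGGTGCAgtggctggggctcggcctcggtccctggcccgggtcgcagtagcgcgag
Slc1a4, chr11:20332664-20332963, minus strand: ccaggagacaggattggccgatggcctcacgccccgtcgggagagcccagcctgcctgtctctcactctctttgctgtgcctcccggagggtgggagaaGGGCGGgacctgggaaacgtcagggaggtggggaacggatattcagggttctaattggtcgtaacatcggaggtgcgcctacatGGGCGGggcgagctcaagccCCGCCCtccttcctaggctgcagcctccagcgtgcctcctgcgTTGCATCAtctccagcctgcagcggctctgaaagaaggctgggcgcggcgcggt

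The windows differed in these letters. The GC box occurred 6 times in the Slc23a2 window, 3 times in that of Slc30a4, 3 times in that of Slc1a4 and 1 time in that of Slc1a1, and runs of capitals longer than 1 motif are copies that touch or overlap. The Slc5a1 and Slc33a1 windows held 1 E-box each and no GC box. The 10 windows of called members cover 9 of the 11, as no window was available for Slc4a11 and Slc39a14. Metal response element cores were in 4 of the 10 windows: 3 copies for Slc30a4, 2 for Slc25a11, 1 for Slc15a1 and 1 in the Slc23a2 window not shown. The Slc1a4 window held the only TGATGNAA core among these 10. Over 32851 windows of all genes, 35.7% held a GC box, 7.15% an E-box, 25.7% a metal response element core and 3.97% TGATGNAA. Windows of members, 138 windows for 99 of the 126, held them in 72.5%, 15.2%, 36.2% and 2.9% of cases, and windows of tested genes with at least 10 CPM in 66.5%, 10.7%, 37.3% and 2.08%. The core of the antioxidant response element, TGACNNNGC, to which NRF2 binds, was in 0 of the 10 windows of called members, in 21.0% of the members' windows, in 14.4% of windows of tested genes with at least 10 CPM and in 12.4% of all windows. TATAAA was in 0 of the 10 windows, 5.07% of the members' windows, 6.22% of those of tested genes with at least 10 CPM and 13.6% of all. A match of letters is a description of the window and not a binding site.

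Among classes of at least 10 members, carriers of vitamins, choline, haem and lipids had the largest median absolute log2 fold change, 0.12. Of 13, 2 fell (Slc23a2 and Slc27a3) and 0 rose, or 15.4% beside 5.41% of all tested genes. The class median was 0.0019. Slc27a3, an acyl-CoA synthetase of the fatty acid transport protein family, was at 30.8 and 27.4 CPM in the knockout and at 35.6 and 35.4 CPM in wild type (log2 fold change -0.28 ± 0.078 SE, limma adjusted p = 0.0496). This call ended without wild-type library 1 (adjusted p = 0.135), wild-type library 2 (0.0795) or knockout library 2 (0.295). It also ended with edgeR (0.0513) and DESeq2 (0.116) on reads recovered from the CPM values, under TMM scaling (0.0518) and with the filter at 10 CPM (0.0563), which with the unfiltered test makes 8 of 11 alternatives, in a range of 0.012 to 0.295. Slc44a2, a choline transporter-like protein, was at 54.1 and 50.6 CPM in the knockout and at 47.0 and 40.8 CPM in wild type, without overlap (log2 fold change 0.25, limma adjusted p = 0.0638). The thiamine carrier Slc19a2 was at 126 and 128 CPM in both groups, with an interval of the log2 difference from -0.10 to 0.10. Slc44a1, another choline carrier, had a mean of 80.1 ± 2.83 CPM in the knockout and 82.8 ± 3.19 CPM in wild type (SD, n = 2 each; log2 fold change -0.05, adjusted p = 0.711).

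Amino acid and peptide carriers included 1 that rose and 2 that fell among 19, or 15.8% beside 5.41% of all tested genes. The class median was -0.0036. Besides Slc1a1, the peptide transporter Slc15a1 (PEPT1) fell: it was at 16.04 and 16.24 CPM in the knockout and at 20.3 and 22.5 CPM in wild type (log2 fold change -0.38 ± 0.092 SE, limma adjusted p = 0.024). Its call ended without wild-type library 2 (adjusted p = 0.128), knockout library 1 (0.0715) or knockout library 2 (0.0819), and with DESeq2 (0.0523), in a range of 0.00431 to 0.128. Slc1a4, the carrier ASCT1 of serine, alanine and other small neutral amino acids, was at 107 and 103 CPM in the knockout and at 91.7 and 89.2 CPM in wild type, so both knockout libraries were higher (1.16-fold, a log2 fold change of 0.21 with SE 0.053, limma adjusted p = 0.0298). That call ended without wild-type library 1 (0.0637), wild-type library 2 (0.119) or knockout library 1 (0.101), in a range of 0.00817 to 0.119.

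The 3 amino acid carriers with the most reads did not pass. Slc38a2, which brings in glutamine and other neutral amino acids and is also an ATF4 target, was at 539 and 568 CPM in the knockout and at 585 and 562 CPM in wild type (log2 fold change -0.05, adjusted p = 0.574). The taurine carrier Slc6a6 was at 296 and 298 CPM in the knockout and 273 and 284 CPM in wild type (adjusted p = 0.274). Slc38a1 was at 272 and 280 CPM in the knockout and 264 and 260 CPM in wild type (adjusted p = 0.39). Among 5 carriers listed as ATF4 targets, 1 of them under 10 CPM and so not a member, Slc1a4 was the 1 that passed. The list does not cover Slc7a11, Slc3a2, Slc7a1, Slc7a3 and Slc7a5, which were left out by the choice of members. Slc38a10, at 148 and 141 CPM in the knockout and 136 and 132 CPM in wild type, had the largest change without overlap among the uncalled genes of the class (log2 fold change 0.11, adjusted p = 0.25). Slc38a4, an imprinted gene in the mouse and chosen here after its values were seen, was at 186 and 200 CPM in the knockout and 198 and 189 CPM in wild type, with an interval of -0.11 to 0.10.

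**Figure D3:**
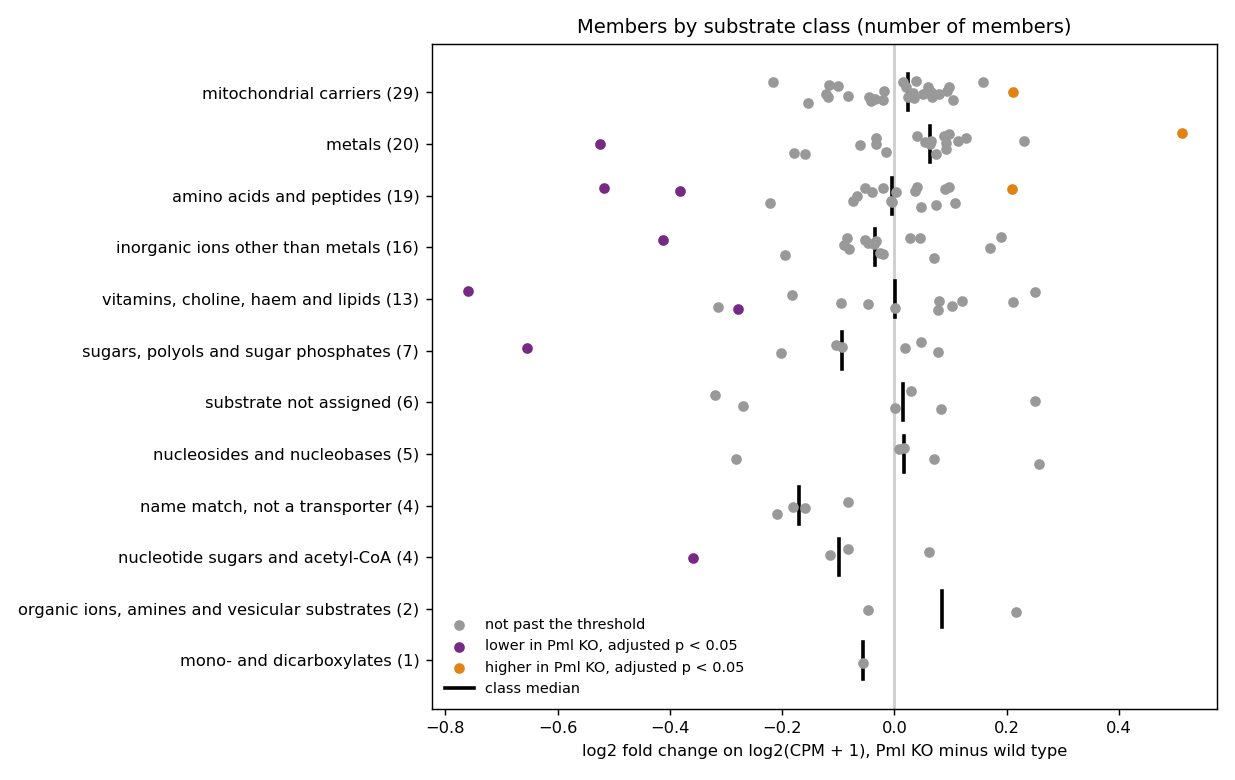
Log2 fold change (knockout minus wild type) of each of the 126 members, 1 point a gene, by substrate class with the number of members in parentheses; vertical bars are class medians, purple and orange points passed the threshold. The calls are spread over 7 classes and the medians of the 4 largest classes lie between -0.03 and 0.06.

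Metal carriers held 1 gene that rose and 1 that fell among 20, or 10% beside 5.41% of all tested genes. Both handle zinc, as do most of the 20 (10 Slc39 and 7 Slc30 members). The exporter Slc30a4 (ZnT4), which moves zinc into vesicles and is disrupted in the lethal milk mouse, was at 13.9 and 15.9 CPM in the knockout and at 9.43 and 10.9 CPM in wild type. The groups did not overlap (1.47-fold, a log2 fold change of 0.51 with SE 0.11, limma adjusted p = 0.0135). The call ended without wild-type library 1 (adjusted p = 0.0546) or knockout library 2 (0.138), in a range of 0.000685 to 0.138. Slc30a4 overlaps the non-coding RNA gene 4930417H01Rik, which has no values here. The importer Slc39a14 (ZIP14), which carries zinc, iron and manganese, was at 9.52 and 9.36 CPM in the knockout and at 16.5 and 11.9 CPM in wild type (log2 fold change -0.52 ± 0.13 SE, limma adjusted p = 0.0307). Its wild-type libraries differed from each other nearly as much as from the knockout. Without wild-type library 1 the log2 fold change was -0.30 and the adjusted p 0.341, and the call also ended without knockout library 1 (0.0714) or knockout library 2 (0.118) and with the filter at 10 CPM (0.0545). The range was 1.6e-05 to 0.341.

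The other zinc carriers among the members did not pass. Of the 10 importers of the Slc39 family, 1 fell and none rose, with a median log2 fold change of 0.02, and of the 7 exporters of the Slc30 family, 1 rose and none fell, with a median of 0.05. Slc39a7, which releases zinc from the endoplasmic reticulum, took the most reads of the class at 174 and 156 CPM in the knockout and 174 and 170 CPM in wild type (adjusted p = 0.586). Slc39a10 was at 98.3 and 104 CPM in the knockout and 93.1 and 94.1 CPM in wild type (log2 fold change 0.11, adjusted p = 0.264). Slc30a5 was at 71.8 and 76.4 CPM in the knockout and 73.2 and 78.4 CPM in wild type (adjusted p = 0.824). Slc39a11 had the largest uncalled change without overlap, at 33.4 and 30.7 CPM in the knockout and 26.0 and 28.3 CPM in wild type (log2 fold change 0.23, adjusted p = 0.116). Over the class, libraries did not overlap for 13 of 20 genes, or 65%, beside 49.3% of all tested genes and 50.7% of those with at least 10 CPM. In the knockout 10 of the 13 were higher and 3 lower, and the class median was 0.06. Of 11 genes of zinc and copper handling outside the SLC families, Mt3, a metallothionein, rose (3.67 ± 0.53 CPM in the knockout and 1.94 ± 0.042 CPM in wild type, SD, n = 2 each; limma adjusted p = 0.0221). The copper chaperone gene Cox17 fell (58.8 ± 2.03 and 68.9 ± 1.16 CPM; adjusted p = 0.0372). These 2 calls were 18.2% of the 11, beside 5.41% of all tested genes. The zinc-responsive metallothioneins Mt1 and Mt2 did not pass (adjusted p = 0.545 and 0.233).

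Of 29 members of the Slc25 family, all grouped here as mitochondrial carriers, 1 rose and 0 fell, or 3.45% beside 5.41% of all tested genes. All 29 intervals lay within 1.5-fold. The gene that rose was Slc25a11, the oxoglutarate carrier of the malate-aspartate shuttle, at 96.5 and 105 CPM in the knockout and 88.0 and 85.5 CPM in wild type (1.16-fold, a log2 fold change of 0.21 with SE 0.056, limma adjusted p = 0.0411). Its call ended without wild-type library 1 (adjusted p = 0.0653), wild-type library 2 (0.126) or knockout library 2 (0.239). It also ended with edgeR (0.05002) and DESeq2 (0.054) on recovered reads, under TMM scaling (0.0519) and with the filter at 10 CPM (0.0532), which with the unfiltered test makes 8 of 11 alternatives, in a range of 0.0112 to 0.239. Slc25a11 overlaps Rnf167, itself at a log2 fold change of 0.11 (adjusted p = 0.405), and no source used here says whether counting used strand.

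The 4 carriers of carboxylates and phosphate, the subgroup of Slc25a11, had log2 fold changes above 0 with a median of 0.13, and only Slc25a11 passed. Libraries did not overlap for 3 of the 4, beside 49.3% of all tested genes and 50.7% of those with at least 10 CPM. The citrate carrier Slc25a1 was at 129 and 130 CPM in the knockout and 112 and 120 CPM in wild type (log2 fold change 0.16, adjusted p = 0.0949). The phosphate carrier Slc25a3, which feeds ATP synthesis, was at 621 and 643 CPM in the knockout and 592 and 584 CPM in wild type (log2 fold change 0.10, adjusted p = 0.183). The dicarboxylate carrier Slc25a10 was at 20.7 and 19.3 CPM in the knockout and 19.7 and 19.2 CPM in wild type, with overlap. The ADP/ATP carrier Slc25a5 was at 584 and 620 CPM in the knockout and 600 and 592 CPM in wild type (adjusted p = 0.897), and its paralog Slc25a4 did not pass (adjusted p = 0.75). The paralogs are alike in sequence and no source used here tells how reads matching several genes were handled, so each level is uncertain. Slc25a39, needed for glutathione import, was at 354 and 349 CPM in the knockout and 333 and 339 CPM in wild type (adjusted p = 0.458). The iron carrier Slc25a37, mitoferrin-1, was at 13.5 and 12.3 CPM in the knockout and 16.2 and 14.2 CPM in wild type (log2 fold change -0.22, adjusted p = 0.277). Of 12 mitochondrial carriers with other names, Ucp2 rose (219 ± 2.97 CPM in the knockout and 189 ± 8.66 CPM in wild type; limma adjusted p = 0.0175). The serine carrier gene Sfxn1 also rose (115 ± 2.05 and 97.2 ± 0.80 CPM; adjusted p = 0.00992). None passed as lower, and the 2 calls were 16.7% of the list, beside 5.41% of all tested genes. The other 10 of the 12 had log2 fold changes below 0. Values ran from -0.45 to 0.24, with a list median of -0.11.

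**Figure D4:**
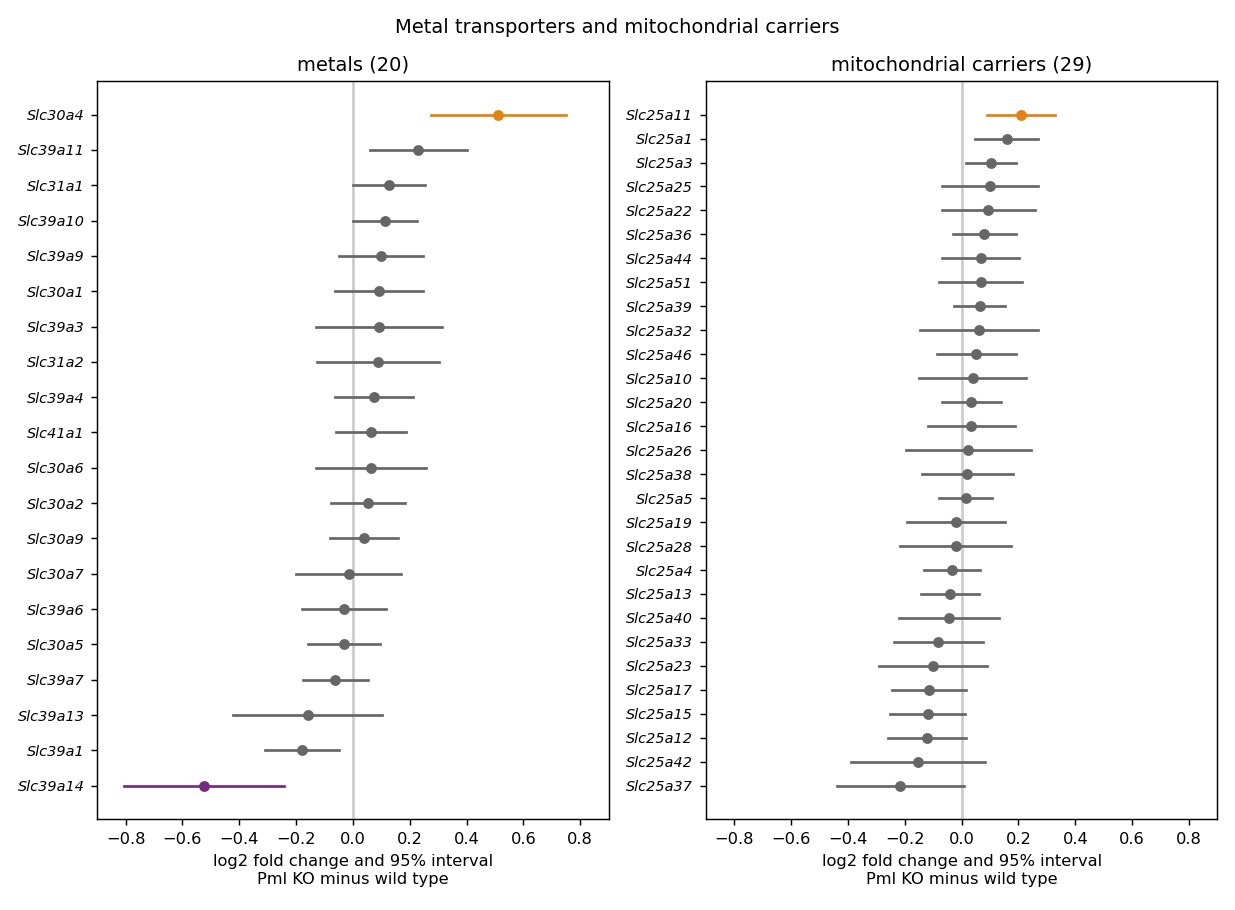
Log2 fold change (knockout minus wild type, points) with its 95% interval from limma (lines) for the 20 metal carriers and the 29 mitochondrial carriers, ordered by value; purple and orange mark genes past the threshold. Slc30a4 and Slc39a14 stand at the ends of the metal carriers at 0.51 and -0.52, and the mitochondrial carriers run from -0.22 to 0.21.

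Carriers of inorganic ions held 1 gene that fell among 16, with a median of -0.03. Slc4a11, a bicarbonate-family protein that conducts protons and ammonia, was at 18.0 and 19.3 CPM in the knockout and at 26.6 and 23.8 CPM in wild type (log2 fold change -0.41 ± 0.090 SE, limma adjusted p = 0.0133). Its call ended without wild-type library 1 (adjusted p = 0.102) or knockout library 1 (0.0645), in a range of 0.0015 to 0.102. Of 6 tested genes within 0.1 Mb, Fastkd5 passed in the other direction (log2 fold change 0.29, adjusted p = 0.0388). The sodium-bicarbonate cotransporter Slc4a5 was at 70.1 and 76.5 CPM in the knockout and 63.6 and 64.6 CPM in wild type (log2 fold change 0.19, adjusted p = 0.0853). The phosphate importers Slc20a1 and Slc20a2 did not pass (349 ± 6.73 CPM in the knockout and 369 ± 22.7 CPM in wild type, adjusted p = 0.395, and 133 ± 2.57 and 129 ± 6.58 CPM, adjusted p = 0.698). The potassium-chloride cotransporter Slc12a7 did not pass either (153 ± 4.82 and 162 ± 5.92 CPM, adjusted p = 0.38). The ion gradients that drive many members come from pumps. Of 20 tested sodium and proton pump genes, 2 rose and none fell, or 10% beside 5.41% of all tested genes. The list median was 0.02. The 2 that rose were the vacuolar ATPase genes Atp6v0a1 (99.6 ± 1.93 CPM in the knockout and 83.6 ± 0.84 CPM in wild type; limma adjusted p = 0.0103) and Atp6ap1 (89.2 ± 1.99 and 76.7 ± 1.27 CPM; adjusted p = 0.0292).

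Carriers of sugars, polyols and sugar phosphates numbered 7, of which Slc5a1 fell and none rose (median -0.09). Slc37a3 was at 59.3 and 59.5 CPM in the knockout and 66.9 and 60.9 CPM in wild type (adjusted p = 0.402). Slc2a8, an intracellular hexose carrier, was at 21.9 and 20.5 CPM in the knockout and 23.6 and 18.5 CPM in wild type (adjusted p = 0.95). The glucose importers Slc2a1 and Slc2a3 were left out by the choice of members.

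The 4 carriers of nucleotide sugars and acetyl-CoA in the Golgi and endoplasmic reticulum included Slc33a1, which fell, and 3 that did not pass. Slc33a1 overlaps Gmps at its 5′ end, which was at a log2 fold change of -0.03 (adjusted p = 0.787). The CMP-sialic acid carrier Slc35a1 was at 32.0 and 29.6 CPM in the knockout and 28.6 and 30.3 CPM in wild type (adjusted p = 0.728). The UDP-N-acetylglucosamine carrier Slc35a3 was at 24.6 and 26.0 CPM in the knockout and 27.5 and 26.2 CPM in wild type (adjusted p = 0.633). Of 15 related Slc35 genes of other subfamilies, whose names the pattern does not match, 0 passed and the median was 0.04. The count was 0 at an unadjusted limma p under 0.05, and edgeR and DESeq2 called 0.

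Nucleoside carriers gave no call among 5. The equilibrative carrier Slc29a1 was at 153 and 146 CPM in the knockout and 159 and 139 CPM in wild type (adjusted p = 0.966). The lysosomal and mitochondrial Slc29a3 was at 32.8 and 36.2 CPM in the knockout and 31.0 and 26.4 CPM in wild type (log2 fold change 0.26, adjusted p = 0.104). Slc29a4, which takes up monoamines and adenosine, was at 17.2 and 16.6 CPM in the knockout and 20.6 and 20.9 CPM in wild type (log2 fold change -0.28, adjusted p = 0.0795). The concentrative carrier Slc28a1 was at 46.5 ± 1.96 CPM in the knockout and 44.2 ± 0.56 CPM in wild type (adjusted p = 0.614). At an unadjusted limma p under 0.05 the count was 2 of 5, and edgeR and DESeq2 called 0.

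The remaining classes were small. Slc16a1, the lactate and pyruvate carrier MCT1 and the single member of the class of carboxylate carriers outside the mitochondrial family, was at 133 and 134 CPM in the knockout and 139 CPM in both wild-type libraries (log2 fold change -0.06, adjusted p = 0.576). The sialic acid exporter of lysosomes, Slc17a5, was at 12.0 and 10.9 CPM in the knockout and 9.65 and 9.70 CPM in wild type (log2 fold change 0.22, adjusted p = 0.296). The vesicular nucleotide carrier Slc17a9 did not pass (adjusted p = 0.848). Among 6 members with no substrate assigned, Slc35a5 was at 12.2 and 11.4 CPM in the knockout and 15.9 and 14.1 CPM in wild type (log2 fold change -0.32, adjusted p = 0.0937). Slc10a7 and Slc12a8 did not pass (adjusted p = 0.851 and 0.995). Their class median was 0.02 and 0 of the 6 passed, with 3 at an unadjusted limma p under 0.05 and 0 called by edgeR or DESeq2.

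The name pattern also took in 4 genes whose products are not transporters, the scaffolds Slc9a3r1 and Slc9a3r2 that anchor sodium-proton exchangers, Slc4a1ap and Slc7a6os. All 4 had log2 fold changes below 0, from -0.21 to -0.08, and 0 passed (2 had an unadjusted limma p under 0.05, and edgeR and DESeq2 called 0). Slc7a6os was at 45.4 and 42.2 CPM in the knockout and 53.0 and 48.5 CPM in wild type (log2 fold change -0.21, adjusted p = 0.0993). Slc9a3r1 was at 54.9 and 53.9 CPM in the knockout and 65.2 and 56.9 CPM in wild type (adjusted p = 0.215). Of 17 other partners and regulators of transporters, Nedd4l, a ubiquitin ligase that removes sodium-coupled transporters from the membrane, fell (45.1 ± 1.49 CPM in the knockout and 55.8 ± 0.94 CPM in wild type; limma adjusted p = 0.0102). Sgk1, the kinase that inhibits it, rose (257 ± 13.7 and 220 ± 20.6 CPM; adjusted p = 0.0379). These 2 calls were 11.8% of the 17, beside 5.41% of all tested genes. Of 19 tested ATP-binding cassette transporters, a separate class of membrane transporters driven by ATP, Abcb1b fell (53.8 ± 0.99 CPM in the knockout and 63.8 ± 0.32 CPM in wild type; adjusted p = 0.0257) and none rose.

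Position on the chromosomes was compared because genes of chromosome 8 were lower in the knockout across the table: 52 of 681 tested genes there fell and 8 rose, with a median of -0.06. The calls were 8.81% of the 681, beside 5.41% of all tested genes, and 481 of the 681 lay below 0. The 10 members on chromosome 8 had a median of -0.08, with 7 below 0 and 0 past the threshold, and Slc27a1, Slc7a6os and Slc12a4 were the lowest of them. Of the 10, 3 had an unadjusted limma p under 0.05, and edgeR and DESeq2 called 0. The 11 members that passed lay on chromosomes 2, 3, 5, 11, 14 and 19, and the median over the 116 members outside chromosome 8 was 0.01. On chromosome 2, 3 of 13 members passed (23.1%, beside 5.36% of its tested genes). On chromosome 11, 2 of 12 passed (16.7%, beside 4.8% of its tested genes), and 10 of the 12 lay above 0, beside 562 of its 1063 tested genes. On chromosome X, 0 of 4 passed, beside 7.76% of its tested genes. Whether these shares differ was not tested. The part of chromosome 8 in the members' values was not tested further.

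The authors' deposited table, from edgeR, held 13 members at a false discovery rate under 0.05, beside 3.8% of its 24421 genes. Those 24421 include 5660 genes without a read, while every member reached 10 CPM, so the 2 counts have unlike bases and were not compared. All 11 members called by limma were among the 13. The other 2 were Slc44a2 and Slc29a4, at false discovery rates of 0.0417 and 0.0423. In the authors' deposited table the log2 fold change runs the other way, wild type over knockout, and was -0.26 for Slc44a2 and 0.30 for Slc29a4.

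**Figure D5:**
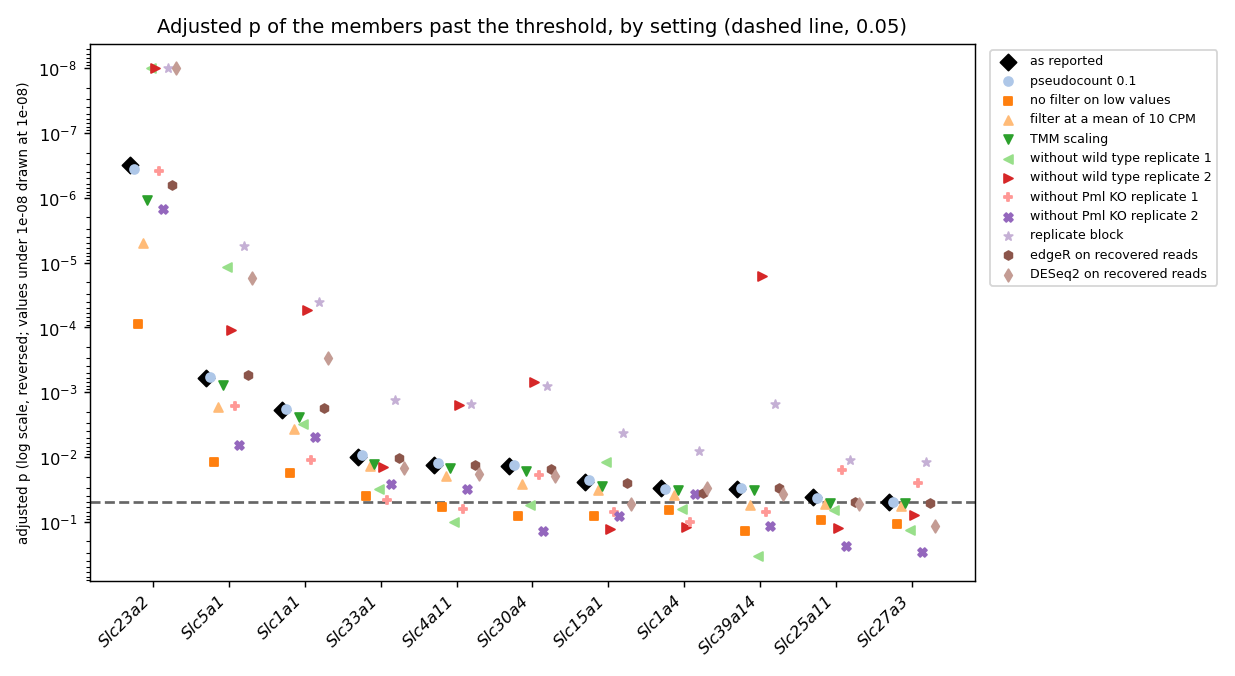
Adjusted p (log scale, reversed, with the smallest values drawn at the top edge) of the 11 members past the threshold as reported (black diamonds) and under 11 alternative settings; the dashed line is 0.05. For Slc23a2, Slc5a1, Slc1a1 and Slc33a1 every symbol lies above the line, and for the other 7 between 3 and 8 symbols fall below it.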

How the data were processed

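RNA of 4 libraries was analysed, 2 from Pml-/- and 2 from wild-type E14 cells, grouped by the genotype label. Per the submitters' processing notes, the authors used cutadapt, TopHat and edgeR on mm10. No source used here gives their versions, the annotation, the handling of multi-mapping reads or strand. The authors deposited CPM per gene and library, beside a log2 fold change, a log2 mean CPM, a p-value and a false discovery rate from their own comparison. Dividing the CPM by the value of 1 read gave whole reads for 100% of values (tolerance 0.001 reads).

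Members were matched by gene name and mean CPM. The members and gene lists were chosen with earlier results of these data known, and substrate classes were assigned by hand from family membership. All 4 libraries entered 1 fit with genotype alone as its term, made with limma-trend in R 4.3.3 (limma 3.58.1) on log2(CPM + 1). It covered the 12710 genes whose mean reached 1 CPM, with Benjamini-Hochberg adjustment over all 12710 genes. Fold changes on this scale understate those of low genes. Recovered reads were tested with edgeR 4.0.16 (quasi-likelihood, 620 genes called) and DESeq2 1.42.0 as alternatives, beside another pseudocount, other filters, TMM scaling, each library left out, a replicate block and other membership limits. In simulated counts for this comparison (12654 genes tested), 76% of changes of 0.32 on the log2 scale and 98% of 1.5-fold changes were recovered, changes smaller than these were not simulated, and 6.97% of calls were unchanged genes. Named genes were the members past the threshold, the 3 members of highest mean CPM in each class, the uncalled member with the largest change without overlap in each class, the 3 genes on each side of the membership limit, and up to 4 called genes of each other list. Slc25a1, Slc25a4, Slc25a10, Slc9a3r2, Slc12a4, Slc27a1, Slc38a4, Mt1, Mt2 and genes given as neighbours fall outside this and were chosen after their values were seen. Coordinates and start-site windows are from RefSeq (GRCm38.p6), with motifs searched on both strands.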

Additional observations from a re-analysis of the deposited data

How the results depend on the processing

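Each group had 2 libraries, which limits precision, and counting error adds to the spread of genes with few reads. Without a filter on low values, 4 members were called (0 higher and 4 lower) and 298 genes in all. More genes were tested there, and the variance trend of limma was also fitted over them. These changes were not separated. Leaving out 1 library gave 6 to 11 called members, 1 to 3 higher and 5 to 10 lower, and 423 to 879 genes; the lowest counts of genes came without knockout library 2 (423, with 6 members) and wild-type library 1 (446, with 7 members). The members' median log2 fold change then ranged from -0.01248 to 0.03133. With membership set at 20 CPM, 7 members were called, 5 of them lower; fewer genes qualified. The cause of the shifts under the other settings, the unfiltered test among them, was not tested. Other settings gave 8 to 13 called members: pseudocount 0.1 gave 11, the 10 CPM filter 8, TMM scaling 9, edgeR 9, DESeq2 8 and membership at 5 CPM 13. Single-member values under alternatives were taken for 48 named members, of which 37 were uncalled. Of these 528 values, 479 kept direction and side of the threshold, 36 lost a call, 11 gained one, 2 others moved, and 0 reversed. Only the 11 called members could lose a call, so all 36 losses were theirs. The call of 4 held throughout, and the other 7 each lost theirs under 3 to 8 of 11 alternatives.

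Replicate numbers are not said to pair libraries, and deviations of same-numbered libraries correlated at 0.12. With a replicate block, 19 members were called (7 higher and 12 lower), including all 11 called without it, and 1198 genes in all.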

Other observations

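Solute carrier genes with fewer reads, which are not among the members, gave 3 calls. Of 66 tested genes with a mean from 1 to under 10 CPM, 1 rose and 2 fell in the knockout (4.55%, beside 5.41% of all tested genes), and the median log2 fold change was -0.02. Slc16a9, a carnitine carrier, was at 7.97 and 9.58 CPM in the knockout and at 4.78 and 4.74 CPM in wild type (log2 fold change 0.76, SE 0.13, limma adjusted p = 0.00299). Slc13a5, the sodium-citrate cotransporter, was at 4.35 and 4.71 CPM in the knockout and at 8.89 and 6.30 CPM in wild type (log2 fold change -0.62, limma adjusted p = 0.0252). Slc11a1, a metal carrier of phagosomes, was at 3.119 and 4.003 CPM in the knockout and at 6.82 and 5.23 CPM in wild type (log2 fold change -0.62, limma adjusted p = 0.0292). Libraries of the groups did not overlap for 30 of the 66 genes (45.5%, beside 49.3% of all tested genes), these 3 among them.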
